A study of Homo sapiens with 9 samples.

Results

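Nuclear receptors other than the thyroid hormone receptors were followed in HepG2, an established human hepatoma cell line. The set was a list of 36 receptor genes, and a probe set of the expression array counted as a member when its annotation gave exactly 1 gene symbol and that symbol was on the list. This gave 81 probe sets for 32 receptors, of 22215 probe sets and 11963 singly named genes in all. NR1H2, NR1I2, NR2F2 and NR0B1 had no probe set of this kind and were not analysed here. Cells growing in medium with thyroid hormone-depleted serum received vehicle, 10 nM triiodothyronine (T3) or 10 nM GC-1 for 24 h, with 3 arrays in each group. GC-1 (sobetirome) is a synthetic thyroid hormone receptor agonist that prefers the beta receptor and carries no iodine. All groups shared the hormone-depleted medium, so vehicle is a low-hormone state of 1 tumour line. The labels do not say whether replicates were separate cultures. The p-values then reflect only the scatter of these arrays, part or all of which could be technical.

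Nuclear receptors are transcription factors that share a zinc-finger DNA-binding domain and a ligand-binding domain. Many pair with a retinoid X receptor (RXR) and bind 2 copies of a short half-site whose spacing and orientation set which receptor fits. In liver they govern fatty acid burning, bile acid and drug metabolism, glucose output and the circadian clock, and the thyroid hormone receptors share both RXR and half-sites with several of them.

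The upstream sequences of 3 receptors show what such half-sites look like, and they were chosen with their values known. RARB is shown for its pair of half-sites, and RORA and PPARD because each had a rise under T3 that passed in every alternative fit. The windows are the 250 bases before a transcription start, from RefSeq on GRCh38.p14, printed 5′ to 3′ on the gene's strand. Capitals mark a half-site, AGGTCA in its consensus form, searched on both strands. Its variant GGGTCA was searched too, and so was AGTTCA. The last form searched was GGTTCA.
RARB (chr3:25428013-25428262, plus strand): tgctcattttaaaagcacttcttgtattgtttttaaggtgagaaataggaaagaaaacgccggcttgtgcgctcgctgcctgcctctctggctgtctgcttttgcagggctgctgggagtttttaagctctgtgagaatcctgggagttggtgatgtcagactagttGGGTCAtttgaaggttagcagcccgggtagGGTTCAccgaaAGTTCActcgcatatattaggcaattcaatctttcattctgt
RORA (chr15:60627531-60627780, minus strand): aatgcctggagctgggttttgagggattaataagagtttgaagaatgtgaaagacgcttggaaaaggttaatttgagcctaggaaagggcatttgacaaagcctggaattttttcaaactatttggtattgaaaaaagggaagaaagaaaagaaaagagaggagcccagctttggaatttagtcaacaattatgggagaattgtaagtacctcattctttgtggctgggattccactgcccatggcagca
PPARD (chr6:35342308-35342557, plus strand): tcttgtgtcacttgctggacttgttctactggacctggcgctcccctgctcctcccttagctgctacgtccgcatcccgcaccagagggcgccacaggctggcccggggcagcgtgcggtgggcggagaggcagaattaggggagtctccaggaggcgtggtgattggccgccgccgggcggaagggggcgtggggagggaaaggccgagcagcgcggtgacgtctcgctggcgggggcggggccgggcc

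The RARB window held 3 half-sites, starting 83, 53 and 42 bases before the start. The last 2 lie in the same orientation with 5 bases between them and form the well-known retinoic acid response element of this gene. The RORA and PPARD windows held no half-site of these forms. RefSeq windows were matched for 28 of the 32 receptors, 71 windows in all, of which 27 held at least 1 half-site. Over all 35116 promoter windows of the same length the share with a half-site was 33.8%. A direct repeat with 5 bases between half-sites was found in 26 of those 35116 windows (0.074%), and RARB, in 1 of its 4 windows, was the only measured receptor with one. A direct repeat with 4 bases between half-sites was also searched. It was found in 26 windows as well (0.074%), none of them of a measured receptor. Which start the RARB probe sets report was not analysed here, and a match is a description of letters, not of binding.

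Array medians ranged from 7.02 to 7.06 log2 units. The interquartile range was 2.99 and 2.97 on T3 replicates 1 and 2, and 2.83 to 2.88 on the other 7 arrays. The widest arrays were thus T3 arrays, so fits with this range as a covariate cannot tell array spread from a T3 effect. T3 replicate 3 had the lowest estimated array weight, 0.30, against 0.78 to 1.71 for the others, so results that rest on it are also given without it. Probe sets whose mean over the 9 arrays lay under the 40th percentile of all probe sets (6.51) are called dim here. Their median difference from the vehicle mean was -0.05 and -0.04 on T3 replicates 1 and 2, -0.0063 on T3 replicate 3, and between 0.0093 and 0.013 on the GC-1 arrays. The 11 measured hepatocyte markers lay between 11.6 and 14.4 in vehicle, ALB, TTR and APOA1 among them. Their summed linear signal was 167800 to 170000 in vehicle, 175100 to 181900 under T3 and 176000 to 180600 under GC-1. Of these 11, FGB (0.69 log2 units) and APOB (0.21) rose past the threshold under T3, and FGB (0.65) under GC-1. Among the markers of other cell types, PTPRC (4.88) and CDH5 (4.83) were low, while LYZ (12.5), ACTA2 (10.2) and COL1A1 (9.19) were high. The 17 measured markers of this kind lay between 4.74 and 12.5, and none passed the threshold under T3 or GC-1. Their summed linear signal was 8354 to 8738 in vehicle, 7810 to 9770 under T3 and 8378 to 9152 under GC-1, and the part of either sum in the receptor results was not tested.

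By that measure, the mean over all 9 arrays, 31 of the 81 receptor probe sets were above the dim level, and 16 of the 32 receptors had at least 1 such probe set. The values that follow are vehicle means. Probe sets differ in how well they bind, so the levels do not rank the receptors, and dimness alone does not mean that a transcript is missing. All 4 probe sets of NR3C1, the glucocorticoid receptor, were above it, at 7.71 to 9.18 log2 units, as were both of ESRRA (7.81 and 7.93), which drives mitochondrial genes, and both of RORA (7.71 and 7.90). The same held for PPARG, the adipogenic fatty acid receptor (8.84), the COUP-TF family member NR2F1 (8.82) and all probe sets of the orphans NR4A1 (7.13 to 7.43) and NR6A1 (7.01 to 7.47). Several receptors had bright and dim probe sets together, such as NR2F6 (4.88 to 9.24), NR2C1 (6.04 to 9.23), RARG (5.29 to 7.86) and PPARD (5.19 to 8.33). The progesterone receptor PGR (4.35), the 3 probe sets of NR4A2 (4.45 to 5.05), the photoreceptor factor NR2E3 (4.48 and 5.70), the HNF4 paralogue HNF4G (5.24), RXRG (5.31) and RORB (5.39) had dim probe sets alone. So had CAR, NR1I3 (5.95), a liver sensor of foreign compounds, PPARA (5.19 and 6.32), and all probe sets of RARB, NR2C2, NR2E1, ESRRB, ESRRG, NR4A3, NR5A1 and NR5A2 (4.51 to 6.44).

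**Figure D1:**
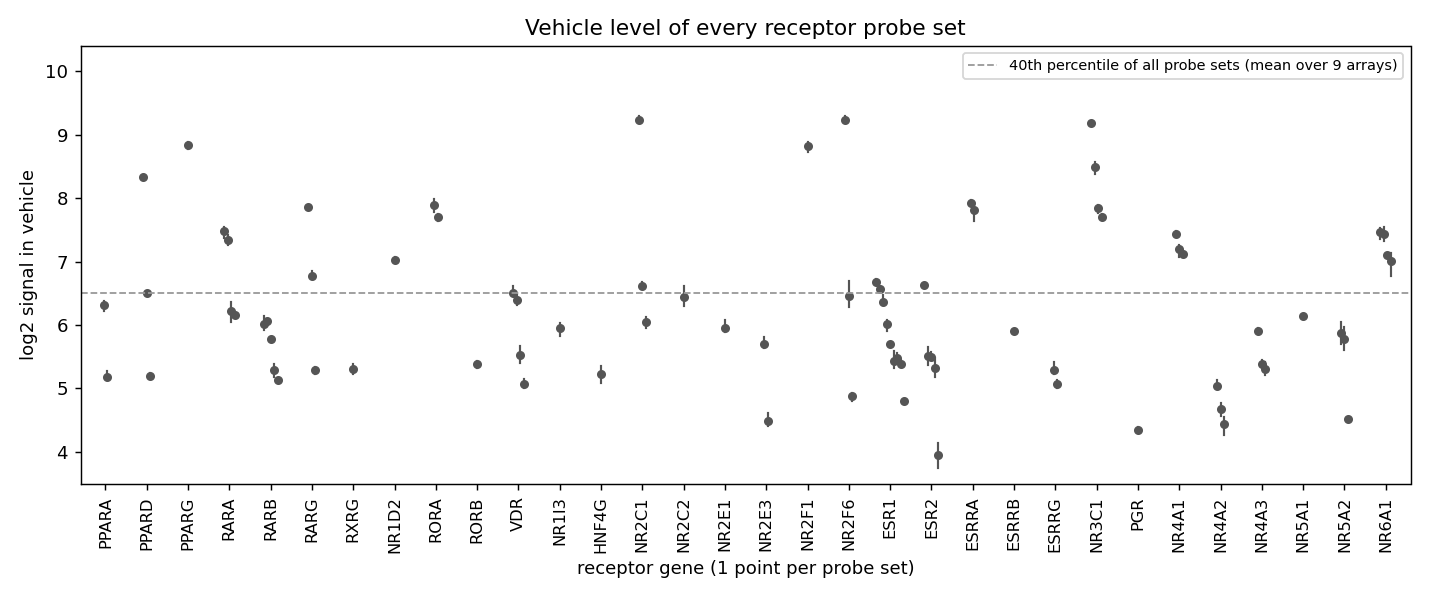
Vehicle level of the 81 receptor probe sets. The y axis is the log2 signal, each point is the mean of 3 vehicle arrays and each line spans the lowest to the highest array; the dashed line at 6.51 is the 40th percentile of all probe sets by their mean over the 9 arrays. All probe sets of NR3C1, ESRRA, RORA, NR4A1 and NR6A1 lie above the line, and those of PGR, NR4A2 and RXRG below it.

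The first comparison asks which receptor genes T3 changed. At an adjusted p under 0.05 in limma, 7 of the 81 probe sets passed, 4 higher and 3 lower, for 5 receptors. This was 8.64% of the receptor probe sets, against 5.5% of all probe sets (4% higher and 1.5% lower, 888 and 334 probe sets). The share called depended on level. Of the dim receptor probe sets 4 of 50 passed, against 1.94% of all dim probe sets, and of the others 3 of 31, against 7.88%. With each array's interquartile range as a covariate the split over all probe sets turned, to 932 higher and 1152 lower. An unadjusted p under 0.05 was found for 14 of the 81 receptor probe sets, against 21.1% of all. RORA, PPARD and 1 probe set of VDR rose, and probe sets of RARB and ESR1 fell, by 1.16- to 1.28-fold. The median T3 minus vehicle difference of the 81 was -0.02 log2 units, against -0.015 over all probe sets. Their differences ran from -0.32 to 0.36, and the 95% interval lay within 1.5-fold for all 81. Signals of dim probe sets are compressed, and 50 of the 81 were dim, so this bounds array signal and not transcript change.

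RORA encodes a receptor that activates clock genes such as BMAL1 and lipid genes in liver. Its probe set 210426_x_at read 7.72, 7.65 and 7.76 in vehicle replicates 1 to 3, 8.002, 8.19 and 8.01 under T3, and 7.68, 7.76 and 7.69 under GC-1. The 3 T3 arrays were all higher than the other 6 arrays, while vehicle and GC-1 overlapped. The T3 difference was 0.36 ± 0.06 log2 units (SE, n = 3 per group), or 1.28-fold (adjusted p = 0.00579), and it passed under each of the 16 alternative fits run. Names ending in _x_at mark probe sets that can bind several transcripts.

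The second RORA probe set, 210479_s_at, read 7.99, 7.78 and 7.93 in vehicle, 8.16, 8.27 and 8.13 under T3, and 7.98, 7.93 and 7.99 under GC-1. T3 again stood above both other groups without overlap. The rise was 0.29 ± 0.06 (1.22-fold, adjusted p = 0.0252). It missed the threshold without T3 replicate 1 (adjusted p = 0.0578), T3 replicate 2 (adjusted p = 0.0700), vehicle replicate 2 (adjusted p = 0.0882) or vehicle replicate 3 (adjusted p = 0.0684). It also missed it with the interquartile range as a covariate (0.25, adjusted p = 0.115), with only vehicle and T3 fitted (adjusted p = 0.0681) and with a replicate block (adjusted p = 0.0619). The related RORB was dim, with a T3 difference of 0.0010. NR1D2, the REV-ERB beta repressor that competes with RORA at the same sites, differed by -0.05 (95% interval -0.35 to 0.26), with its T3 arrays spread from 6.58 to 7.31.

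PPARD encodes the widely expressed fatty acid receptor that switches on fat oxidation. Its brightest probe set, 37152_at, read 8.32, 8.31 and 8.37 in vehicle, 8.63, 8.55 and 8.70 under T3, and 8.57, 8.58 and 8.50 under GC-1. Both ligands stood above vehicle without overlap, and they overlapped with each other. With T3 the rise was 0.29 ± 0.05 (1.23-fold, adjusted p = 0.00945), again past the threshold under all 16 alternative fits run. The other PPARD probe sets differed by 0.14 (208044_s_at, adjusted p = 0.141) and 0.12 (210636_at, adjusted p = 0.198), with no overlap between T3 and vehicle arrays in either.

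The other fatty acid receptors did not pass. PPARA, the main driver of hepatic fat burning in fasting, read 6.22, 6.37 and 6.38 in vehicle, 6.55, 6.47 and 6.55 under T3, and 6.66, 6.54 and 6.44 under GC-1 (206870_at). The T3 and GC-1 arrays all lay above the vehicle arrays, and the T3 difference was 0.20 ± 0.07 (adjusted p = 0.117). Its second probe set differed by 0.08 (adjusted p = 0.515). PPARG differed by -0.03 (adjusted p = 0.809).

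VDR, the vitamin D receptor, passed in 1 of 4 probe sets, 204255_s_at, which is dim. It read 5.00, 5.05 and 5.15 in vehicle, 5.34, 5.47 and 5.22 under T3, and 5.16, 5.26 and 5.15 under GC-1. T3 and vehicle did not overlap, but T3 replicate 3 lay close to the highest vehicle array. The rise was 0.27 ± 0.07 (1.21-fold, adjusted p = 0.0451). Leaving out any 1 of the 9 arrays except T3 replicate 3 brought it above the threshold (adjusted p between 0.0622 and 0.164). With the interquartile range as a covariate the difference was 0.16 (adjusted p = 0.292). The other 3 probe sets differed by -0.09 to 0.06, and none passed.

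ESR1, estrogen receptor alpha, had the largest decrease, in 1 of its 9 probe sets. This dim probe set, 205225_at, read 5.36, 5.45 and 5.34 in vehicle, 4.97, 5.07 and 5.15 under T3, and 5.38, 5.37 and 5.38 under GC-1. The 3 T3 arrays lay below the other 6, and GC-1 lay within the vehicle range. The T3 difference was -0.32 ± 0.06, or 1.25-fold lower (adjusted p = 0.00709). It passed in every leave-one-out fit. With the interquartile range of each array as a covariate it was -0.23 (adjusted p = 0.0677). Its differences from the vehicle mean were -0.42, -0.31 and -0.24 on T3 replicates 1 to 3. The part in them of the shift of dim probe sets was not tested. The other 8 probe sets of ESR1 differed by -0.20 to 0.05 and did not pass, 7 of them below 0.

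RARB, the retinoic acid receptor whose response element is printed above and which retinoic acid induces, fell in 2 of 5 probe sets, all 5 of them dim. Probe set 205080_at read 6.04, 6.07 and 6.06 in vehicle, 5.78, 5.87 and 5.84 under T3, and 6.13, 6.06 and 6.02 under GC-1. The T3 arrays lay below all others (difference -0.23 ± 0.05, 1.17-fold lower, adjusted p = 0.0232). Probe set 217020_at read 5.81, 5.81 and 5.74 in vehicle, 5.60, 5.53 and 5.60 under T3, and 5.78, 5.68 and 5.75 under GC-1, and fell by 0.21 (adjusted p = 0.0336). These calls held in fewer fits than those of RORA 210426_x_at and PPARD 37152_at. The first missed the threshold without T3 replicate 1 (adjusted p = 0.0850) or vehicle replicate 1, 2 or 3 (adjusted p = 0.0705, 0.0781 and 0.0855). The second missed it without T3 replicate 1 or 2, any vehicle replicate or GC-1 replicate 3 (adjusted p between 0.0570 and 0.123). With the array's interquartile range as a covariate neither passed (adjusted p = 0.0959 and 0.110). On T3 replicates 1 to 3 the first differed from the vehicle mean by -0.28, -0.19 and -0.22. The second differed by -0.19, -0.25 and -0.19. The other 3 probe sets of RARB differed by -0.17, 0.04 and 0.09 and did not pass.

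**Figure D2:**
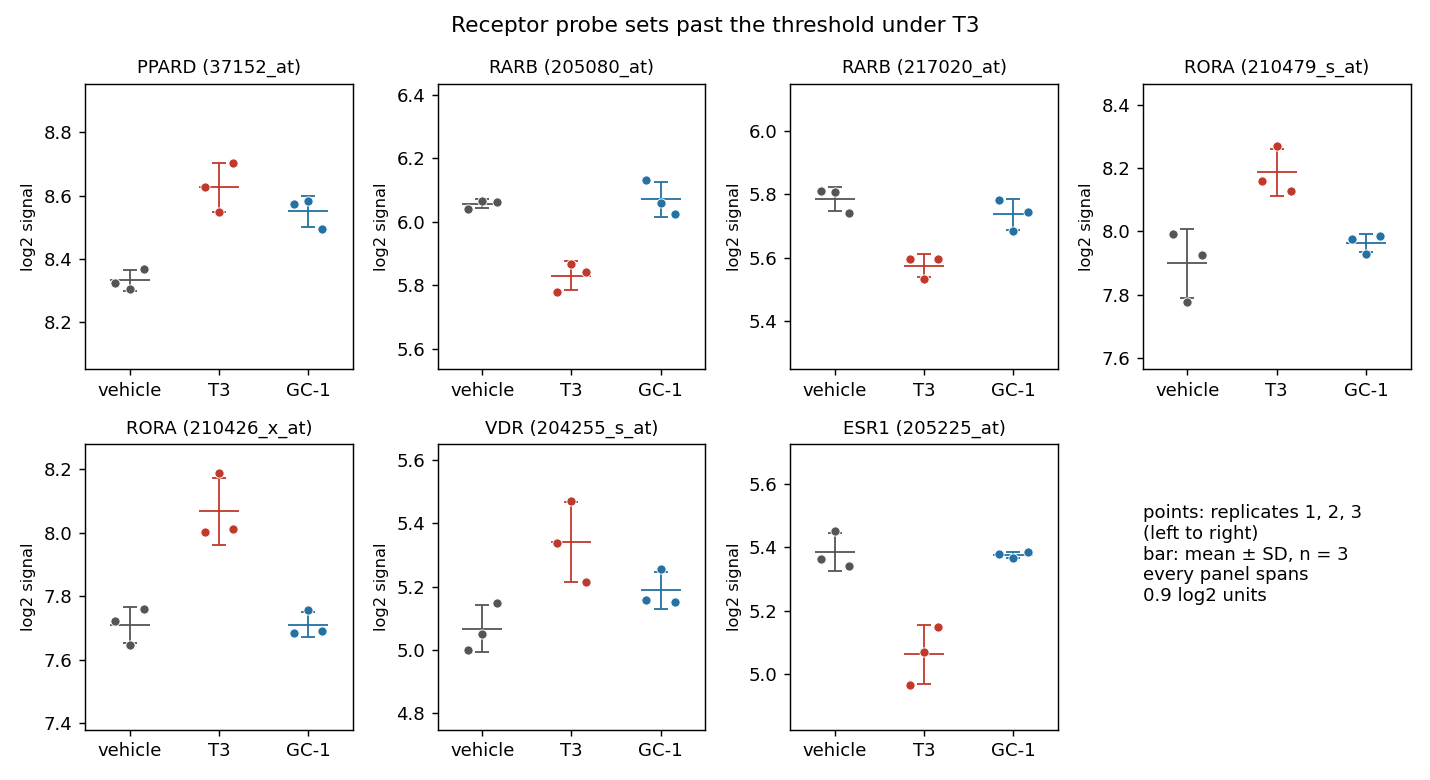
The 7 receptor probe sets past the threshold under T3. Each panel shows the log2 signal of the 9 arrays by group, with points for replicates 1 to 3 and bars for the mean ± SD (n = 3), on axes that each span 0.9 log2 units. T3 stands apart from vehicle in every panel, and GC-1 lies with vehicle in RORA 210426_x_at and ESR1 and with T3 in PPARD.

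The remaining receptors held no call under T3. All 4 probe sets of RARA were slightly positive (0.02 to 0.10) and all 3 of RARG negative (-0.18 to -0.06). NR2F6, a COUP-related repressor, came closest, with 209262_s_at at 0.19 ± 0.05 (adjusted p = 0.0700) and no overlap between the groups. It passed with array weights (adjusted p = 0.0364), with trend and robust eBayes (adjusted p = 0.0199), without dim probe sets (adjusted p = 0.0299) and without T3 replicate 3 (adjusted p = 0.0473). RARG 217178_at passed without T3 replicate 3 (-0.26, adjusted p = 0.0317), as did NR3C1 216321_s_at (0.22, adjusted p = 0.0383). The NR4A receptors are immediate early genes that act without a known classical ligand. Their 9 probe sets ran from -0.11 to -0.02, and after quantile normalization 8 of the 9 were negative. Under GC-1 7 of the 9 were positive (-0.04 to 0.14), 6 after quantile normalization, and none passed in either comparison. NR3C1 ran from -0.06 to 0.15, ESRRA from -0.05 to 0.02, and NR6A1 from -0.10 to 0.06. T3 and vehicle arrays did not overlap in 15 of the 81 probe sets (18.5%), against 24.9% of all probe sets, with T3 higher in 8 (12.5% of all) and lower in 7 (12.4% of all).

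The count of 7 depended on the fit. Leaving out single arrays gave 3 to 10 calls, with 3 to 4 without any 1 of the vehicle arrays or T3 replicate 1 or 2, and 10 without T3 replicate 3. It was 3 with the interquartile range as a covariate and 2 when each receptor was represented by its brightest probe set alone, RORA 210479_s_at and PPARD 37152_at.

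GC-1, given at the dose and time used for T3, was next set against vehicle. None of the 81 probe sets passed in limma, higher or lower, against 2.8% of all probe sets (1.81% higher and 0.986% lower, 403 and 219 probe sets), and 6 (7.41%) had an unadjusted p under 0.05, against 15.9% of all. By level, 0.596% of all dim probe sets passed and 4.27% of the others. With trend and robust eBayes 1 receptor probe set passed, PPARD 37152_at, and with array weights 3. The split over all probe sets turned under these options, to 653 higher and 694 lower with trend and robust eBayes and 706 and 729 with array weights, and to 602 and 670 without T3 replicate 3. T3 and GC-1 were compared with the same 3 vehicle arrays. The GC-1 differences ran from -0.20 to 0.23, with a median of 0.01, against -0.0043 over all probe sets. All 81 intervals lay within 1.5-fold, again a bound on array signal alone.

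PPARD had the smallest p. Its probe set 37152_at differed from vehicle by 0.22 ± 0.05 under GC-1 (adjusted p = 0.0638, 1.16-fold), with all 3 GC-1 arrays above vehicle. The other 2 PPARD probe sets differed by 0.16 and 0.11, each also without overlap. All 9 arrays set the error of this fit, and 37152_at passed without T3 replicate 3 (adjusted p = 0.0267). PPARA 206870_at differed by 0.23 ± 0.07 (adjusted p = 0.121).

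NR5A2, or LRH-1, a regulator of bile acid synthesis, was the remaining receptor of the 3 with the smallest p. Its dimmest probe set, 208343_s_at, read 4.50, 4.52 and 4.52 in vehicle, 4.50, 4.55 and 4.40 under T3, and 4.62, 4.72 and 4.77 under GC-1. GC-1 stood above both other groups, by 0.19 ± 0.06 over vehicle (adjusted p = 0.116). The other NR5A2 probe sets differed by 0.17 and -0.04. PPARG differed by -0.12 under GC-1 (adjusted p = 0.283).

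Apart from PPARD 37152_at, given above, the probe sets that passed under T3 had these GC-1 differences. RORA stood at 0.0017 ± 0.06 and 0.06 ± 0.06, ESR1 at -0.0090 ± 0.06, RARB at 0.01 ± 0.05 and -0.05 ± 0.05, and VDR at 0.12 ± 0.07. Their adjusted p-values were 0.445 or higher, with vehicle and GC-1 overlapping in RORA, ESR1 and RARB. GC-1 and vehicle arrays did not overlap in 11 of the 81 probe sets (13.6%), against 26.5% of all, with GC-1 higher in 7 (10.8% of all) and lower in 4 (15.6% of all).

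**Figure D3:**
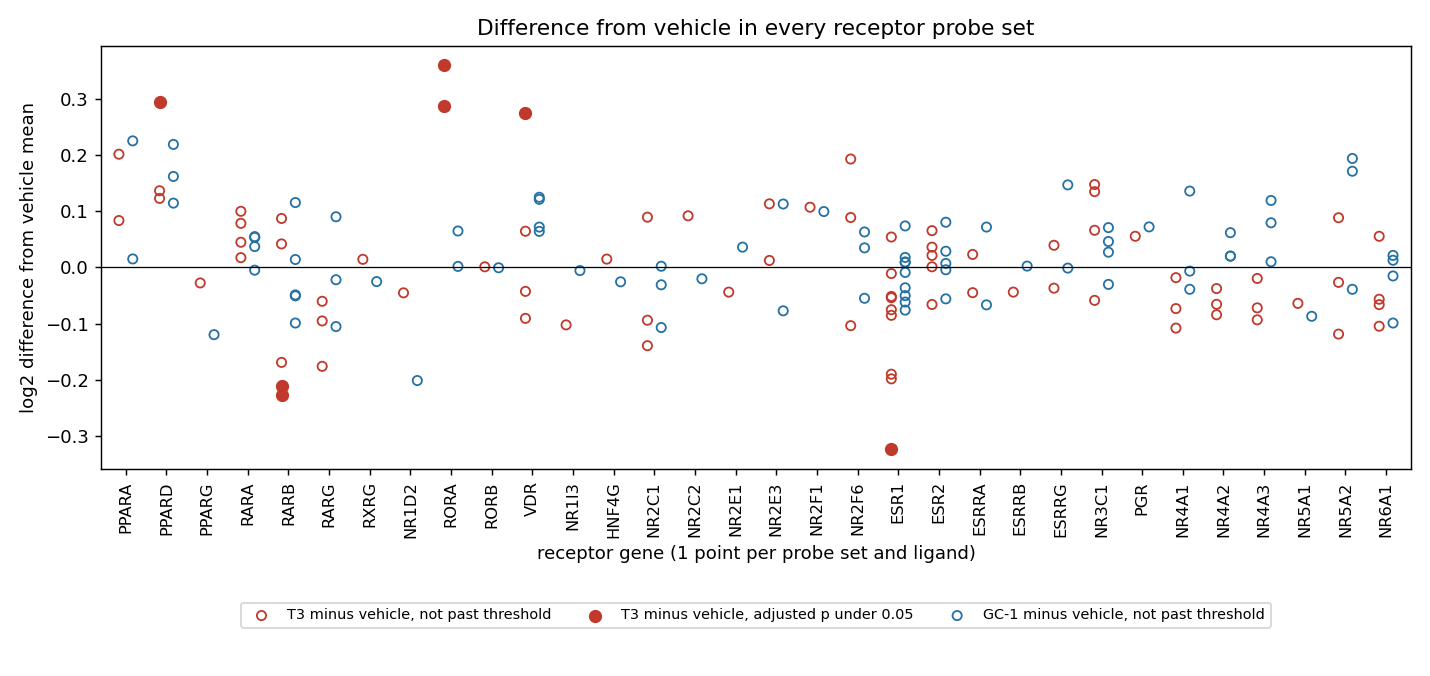
Differences from vehicle in all 81 receptor probe sets. The y axis is the log2 difference of the group means, with T3 in red and GC-1 in blue at each receptor, 1 point per probe set, and filled points past an adjusted p of 0.05. The filled points are T3 in PPARD, RARB, RORA, VDR and ESR1, between -0.32 and 0.36, and no GC-1 point is filled.

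Finally, the 1 pair of compounds in the study was compared directly, at matched dose and time. In limma 0 of the 81 receptor probe sets passed for GC-1 against T3, as was so for all 22215 (0%). Of the 81, 11 (13.6%) had an unadjusted p under 0.05, against 14.1% of all probe sets. With trend and robust eBayes 1 passed, RORA 210426_x_at (adjusted p = 0.0358). For the other receptor probe sets neither fit showed a difference between the ligands, and missing the threshold does not show that they act alike.

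The 3 receptors with the smallest p were RORA, ESR1 and RARB. RORA 210426_x_at was lower under GC-1 than under T3 by 0.36 log2 units (95% interval -0.49 to -0.22, adjusted p = 0.169), a difference of 1.28-fold. For the other RORA probe set the difference was -0.22 (interval -0.36 to -0.08, adjusted p = 0.221). ESR1 205225_at was higher under GC-1 by 0.31 (interval 0.19 to 0.44, adjusted p = 0.175). RARB 205080_at was higher by 0.24 (interval 0.13 to 0.35, adjusted p = 0.176). In each of these 4 probe sets the GC-1 and T3 arrays did not overlap. Over the 81 probe sets this was so in 14 (17.3%), against 18% of all, with GC-1 higher in 10 (7.9% of all) and lower in 4 (10.1% of all).

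Without T3 replicate 3 the differences in RORA 210426_x_at (-0.39, adjusted p = 0.0371), ESR1 205225_at (0.36, adjusted p = 0.0346) and NR4A3 207978_s_at (0.33, adjusted p = 0.0439) passed. Over all probe sets 338 passed in that fit. In the fit of all 9 arrays the 9 NR4A probe sets ran from 0.03 to 0.21 for GC-1 minus T3, with 8 of the 9 positive after quantile normalization, and none passed. PPARD 37152_at was closest between the ligands among the called probe sets, at -0.08 (interval -0.20 to 0.05). VDR 204255_s_at stood at -0.15 (interval -0.31 to 0.0003). All 81 intervals lay within 1.5-fold of array signal in either direction.

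**Figure D4:**
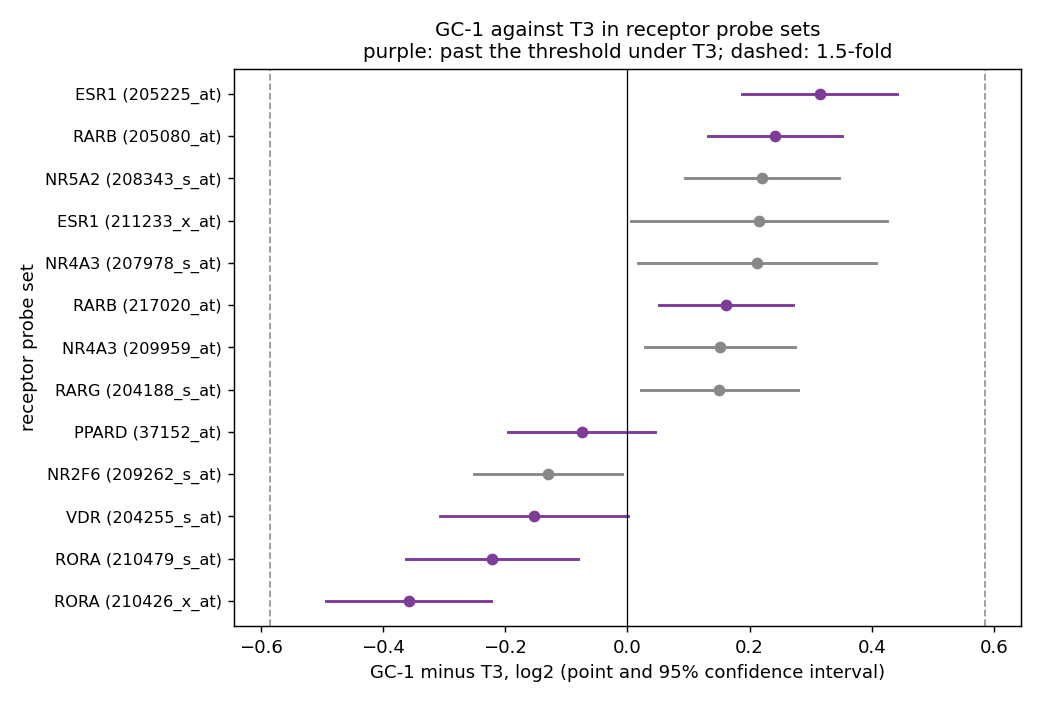
GC-1 minus T3 in the 13 receptor probe sets that passed under T3 or had an unadjusted p under 0.05 in this comparison. Points are log2 differences and lines 95% confidence intervals from limma, purple marks the 7 probe sets past the threshold under T3, and dashed lines mark 1.5-fold. RORA is lowest at -0.36, ESR1 highest at 0.31, and the intervals of PPARD and VDR include 0.

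Known target genes and partners of nuclear receptors were read as 11 lists. The lists were taken from general knowledge and overlap with genes that thyroid hormone receptors control directly, so their counts do not show that a given receptor acted. Each gene was read from its brightest probe set. Over all probe sets 5.5% passed under T3 and 2.8% under GC-1. Among probe sets that were not dim the shares were 7.88% and 4.27%, and the list counts were not tested against them. Of 13 measured clock genes, 5 rose with T3 and none fell (median 0.10, against -0.015 over all probe sets). The list goes with REV-ERB and ROR, but not all of its genes are their direct targets. HLF (0.60), DBP (0.77), NFIL3 (0.34) and BHLHE40 (0.39) were among those that rose. With GC-1, HLF (0.49), DBP (0.78) and NFIL3 (0.30) rose. DBP and HLF encode output factors of the clock, and NFIL3 their opposing repressor. BMAL1, the clock activator named above as a RORA target, differed by -0.02 under T3 (adjusted p = 0.873) and by 0.17 under GC-1 (adjusted p = 0.176). CLOCK (0.10), NPAS2 (0.03) and CRY1 (-0.18) did not pass under T3 either.

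Of 15 measured PPAR targets 3 rose with T3 (median 0.17), namely CPT1A (1.31), which admits fatty acids to mitochondria, ANGPTL4 (1.02), an inhibitor of lipoprotein lipase, and HADHA (0.24, adjusted p = 0.0463). CPT1A (1.08) and ANGPTL4 (0.70) rose with GC-1. Of 10 measured targets of the drug sensors PXR and CAR 4 rose with T3 (median 0.19): GSTA1 (1.64), CYP3A5 (0.92), SULT2A1 (0.62) and CES2 (0.26). All but CES2 rose with GC-1, at 1.40, 1.01 and 0.51. Among 11 measured LXR targets ABCG5, a sterol exporter (0.35), and SMPDL3A (0.38) rose with T3, and both also with GC-1 (0.22 and 0.31).

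Of 7 measured retinoic acid targets 1 rose with T3, the retinaldehyde reductase DHRS3 (0.40, adjusted p = 0.00879), and none passed with GC-1 (DHRS3 0.23, adjusted p = 0.151). The list's median under T3 was -0.07. Of 9 measured glucocorticoid targets KLF9 (1.17), SGK1 (1.13) and DUSP1 (0.54) rose with T3, and the same 3 with GC-1 (1.13, 1.13 and 0.33). KLF9 is also a classical thyroid hormone target. Of 6 measured VDR targets CD14 rose with T3 (1.17) and with GC-1 (1.05). CYP24A1, the vitamin D-degrading enzyme, rose with GC-1 (0.46, adjusted p = 0.0429) and had a T3 difference of 0.32 (adjusted p = 0.109). The GC-1 minus T3 difference in CYP24A1 was 0.14 (adjusted p = 0.566).

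Of 14 measured liver genes under HNF4 or LRH-1 control 5 rose with T3 and 4 with GC-1, among them G6PC1 (2.43 and 1.96) and PCK1 (1.45 and 1.05), enzymes of glucose release, and APOC3 (0.48 and 0.28). The ERR targets held 1 of 10 higher with T3, the respiratory subunit CYC1 (0.21), and 0 with GC-1. Coregulators held 1 of 14 higher with each ligand, NCOA4 (0.28 and 0.25), which also guides ferritin to breakdown. No gene of these lists fell past the threshold under either ligand in the fit used for the values above. Other fits called some lower. Under T3 there were 4 with the interquartile range as a covariate and 3 with trend and robust eBayes. There was 1 after quantile normalization and 1 without T3 replicate 2. Under GC-1 there were 2 with array weights and 2 with trend and robust eBayes. There were also 2 with only vehicle and GC-1 fitted and 2 without T3 replicate 3.

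Of the receptors outside the set, 6 were measured as another list, and 1 rose. NR0B2, or SHP, a receptor without a DNA-binding domain that represses other receptors, rose by 0.34 ± 0.06 with T3 (adjusted p = 0.00797) and by 0.34 ± 0.06 with GC-1 (adjusted p = 0.0133). The GC-1 minus T3 difference in NR0B2 was 0.0017. RXRA, the common partner, differed by 0.19 under T3 (adjusted p = 0.144) and 0.08 under GC-1 (adjusted p = 0.647). The hormone's own receptors THRA and THRB differed by -0.07 and -0.14 under T3, and by -0.06 and -0.35 under GC-1, and did not pass.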

How the data were processed

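The authors deposited log2 signals, 1 per probe set and array, and per the submitters' processing notes RMA was used, with no version given. The log base was inferred from the values. Probe-level files were not used, so background correction could not be varied, and RMA compresses dim signals. Of the probe sets, 62 array controls were left out. The annotation named 1 symbol for 19064 of the other 22215, several for 1043 and none for 2108. Groups came from the sample titles. A single linear model over the 9 arrays was fitted in R 4.3.3 (limma 3.58.1, moderated by eBayes, two-sided), and each contrast's p-values took the Benjamini-Hochberg adjustment across 22215 probe sets. The script was tested on simulated data. The number of arrays limits precision, with a median 95% half-width of 0.159 log2 units for receptor probe sets. The members, lists and tests were chosen with earlier results of these data known. Values in every array are given for receptors past the threshold and for the 3 with the smallest p in GC-1 against vehicle and GC-1 against T3 (fewer than 3 passed there), and up to 4 called genes are named per target list, by the smallest p with T3. Alternatives were quantile normalization, leaving out dim probe sets, other eBayes options, array weights, 2-group fits, a replicate block, the array's interquartile range, each array left out, adjusted p under 0.1 and 1 probe set per receptor.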

Additional observations from a re-analysis of the deposited data

How the results depend on the processing

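Under T3, 1222 probe sets passed in all, and 7 of receptors. The total was 2084 with the array's interquartile range as a covariate, 753 with only vehicle and T3 fitted, 1957 with trend and robust eBayes and 2028 at an adjusted p under 0.1. The receptor count was 3 with that covariate (NR2E3 208388_at, not called in the main fit, among them), 3 with only those groups, 4 without dim probe sets and 2 with 1 probe set per receptor. Under GC-1 the total of 622 became 1435 with array weights, 1061 with only vehicle and GC-1 fitted, 1347 with trend and robust eBayes, 1100 without dim probe sets and 1046 at an adjusted p under 0.1. The receptor count of 0 became 3, 1, 1, 2 and 1 under the same alternatives. For GC-1 against T3, trend and robust eBayes gave 22 calls in all, 1 of them a receptor and 1 a list gene, in place of 0. It also raised the list genes called under T3 from 26 to 40.

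Leaving out each array in turn gave 661 to 1356 calls under T3, 274 to 1272 under GC-1 and 0 to 338 for GC-1 against T3. For receptors these ranges were 3 to 10, 0 to 1 and 0 to 3, and for list genes 22 to 28, 13 to 23 and 0 to 2. The 338, the 10 and the 3 came without T3 replicate 3.

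With the replicate number as a block, 773 probe sets passed under T3, 3 of receptors, and 347 under GC-1, none of receptors. Arrays of the same number did not pair: their correlations ran from -0.262 to 0.075 over the group pairs. For arrays of different number they ran from -0.298 to 0.288, with both ends between T3 and GC-1 arrays.

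Signs were followed for the 7 receptor probe sets called under T3 and, in each GC-1 comparison, for the 3 receptors with the smallest p. None of these changed sign in its comparison in an alternative fit. Smaller differences did change sign: for GC-1 minus T3, 2 of the 6 PPAR probe sets were positive, and 0 after quantile normalization. Over all probe sets the balance of calls turned from mostly higher to mostly lower under T3 with the interquartile range as a covariate (932 higher, 1152 lower). It turned under GC-1 with array weights (706 and 729), only vehicle and GC-1 fitted (522 and 539), trend and robust eBayes (653 and 694) and without T3 replicate 3 (602 and 670). Among the receptors under T3, PPARD 37152_at and RORA 210426_x_at passed in 16 of 16 alternative fits and ESR1 205225_at in 14 of 15, the looser threshold not counted. RORA 210479_s_at passed in 9 of 16, RARB 205080_at in 7 of 15, RARB 217020_at in 4 of 15 and VDR 204255_s_at in 4 of 15. PPARD 37152_at passed under GC-1 in 5 of 16. The causes were not tested, and low signal limits what the dim probe sets can show.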

Other observations

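T3 replicate 3, the array with the lowest estimated weight (0.30), read lowest of the T3 arrays in all 4 probe sets of the glucocorticoid receptor gene NR3C1. This was not particular to NR3C1, since the same held in all 4 probe sets of RARA and in NR1D2 209750_at. Other probe sets differed, such as PPARD 37152_at, where that array read highest of the T3 arrays. In NR3C1 201865_x_at the T3 arrays read 9.26, 9.37 and 9.10, against 9.17, 9.16 and 9.21 in vehicle. In 211671_s_at they read 8.67, 8.77 and 8.44, against 8.39, 8.52 and 8.56. In 216321_s_at they read 8.05, 8.10 and 7.84, against 7.88, 7.77 and 7.90. NR3C1 216321_s_at differed by 0.15 under T3 (adjusted p = 0.245) and, without T3 replicate 3, by 0.22 (adjusted p = 0.0383). The 3 GC-1 arrays of this probe set lay at 7.87, 7.88 and 7.88.

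NR1D2 209750_at, the REV-ERB beta gene, was the widest of the receptor readings within T3, at 7.06, 7.31 and 6.58 (SD 0.374), against an SD of 0.0383 in vehicle and 0.0649 under GC-1. The 3 GC-1 arrays read 6.81, 6.77 and 6.90 and lay below all vehicle arrays (7.02, 6.99 and 7.07), a difference of -0.20 with an adjusted p of 0.537.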
